A study of Homo sapiens with 12 samples.

Results

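Glutathione transferases join the tripeptide glutathione to reactive compounds, which makes them more soluble and marks them for export from the cell. The cytosolic enzymes fall into classes named by Greek letters, the kappa class sits in mitochondria and peroxisomes, and a separate membrane-bound family, the MAPEG proteins, does related work in the endoplasmic reticulum. They are known in cancer cells for the handling of platinum drugs and of the products of lipid oxidation. The transferases examined here were the 10 genes outside the GSTM cluster of chromosome 1: GSTP1 (pi class), GSTA4 (alpha class), GSTO1 and GSTO2 (omega class), GSTT1 and GSTT2 (theta class), GSTK1 (kappa class), and the membrane-bound MGST1, MGST2 and MGST3. The members were chosen by name and not by their values: every probe whose gene name in the scanner files was one of these 10, which gave 14 probes (41 spots) among 50599 probes and 36337 gene names on the array.

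The arrays compared 3 established human lung cancer lines, A549, PC14 and PC14CDDP, the last a cisplatin-resistant derivative of PC14. Every line was transfected in 4 ways with DharmaFECT 1 at 25 nM. These were pre-miR-197, which supplies the microRNA miR-197, and NC, a negative control labelled AllStar-NC. The others were LNA-miR-197, an inhibitor built from locked nucleic acid, and its control LNA-NC, labelled LNA-miR-NC. Total RNA of each transfection was labelled with Cy3 and hybridised to 1 array of 60-base probes, 12 arrays in all, so that no transfection was repeated within a line and the 3 lines served as the replicates of a transfection. No group was left untransfected. The 4 arrays of a line are transfections of 1 line and not independent lines, and their spread may be partly technical.

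On each array 55.8% to 63.1% of the probes stood well above background, no spot was saturated, and the number of arrays limits the precision. Levels are log2 values of the processed signal, with the 75th percentile of the same array set to 0, and a level can be compared between arrays but not between probes. A549 filled 4 positions of slide 1, and the other lines shared slide 2, so that A549 and its slide cannot be told apart. The comparison of PC14CDDP with PC14 lay within slide 2, but PC14 filled row 1 and PC14CDDP row 2. In that comparison line and slide row cannot be told apart. The slide column of a transfection was the same for every line, so that column and transfection cannot be told apart either. Of 6 epithelial markers, 6 were well above background on all 4 arrays of A549, and 4 in PC14 and in PC14CDDP. The defining epithelial genes EPCAM and CDH1 were well above background on 0 of the 4 arrays of PC14CDDP, on 3 and 2 arrays of PC14, and on 4 of A549. Of 5 lung lineage markers, 3 were above background on all arrays in each line, SFTPB was above it on 0 arrays, and NKX2-1 on 0 of the 4 arrays of A549. Of 4 blood, 3 endothelial and 4 fibroblast markers, 3, 2 and 1 were above background on all arrays of A549, 3, 3 and 1 of PC14, and 3, 2 and 1 of PC14CDDP.

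The mature microRNAs of miR-197 are printed here from RefSeq, with the seed (bases 2 to 8) in capitals. They are shown because the transfections turn on miR-197, and the labels do not say which arm was meant.
hsa-miR-197-3p: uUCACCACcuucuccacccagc
hsa-miR-197-5p: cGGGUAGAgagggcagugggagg

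The probe behind the widest difference between lines was that of MGST1, at chr12:16516907-16516966 of hg19, the build of the scanner files. The omega class probes are shown beside it because GSTO1 and GSTO2 are neighbouring paralogs whose probes align with each other and yet gave different patterns. Capitals mark the bases that are the same in the GSTO1 and GSTO2 probes when the second is shifted by 10 bases. In the 50 bases that overlapped, 41 matched (82.0%), and the longest run shared was 14 bases.
MGST1 probe 1: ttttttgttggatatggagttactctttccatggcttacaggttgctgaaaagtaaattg
GSTO1 probe 1: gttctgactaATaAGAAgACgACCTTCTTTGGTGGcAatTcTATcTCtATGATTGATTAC
GSTO2 probe 1: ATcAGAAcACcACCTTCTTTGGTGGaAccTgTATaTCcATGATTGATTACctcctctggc

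The GSTO1 probe lies at chr10:106025842-106025901 and the GSTO2 probe at chr10:106057346-106057405, 31445 bases apart. The theta class probes lie at chr22:24325921-24325980 (GSTT2) and chr22:24376333-24376392 (GSTT1), 50353 bases apart. GSTP1 was read at chr11:67354050-67354109 and MGST2 at chr4:140625256-140625315. GSTA4 was read by probe 1 at chr6:52843138-52843197 and probe 2 at chr6:52850251-52850310, GSTK1 by probe 1 at chr7:142966142-142966201 and probe 2 at chr7:142961668-142961727, and MGST3 by 3 probes at chr1:165624688-165624747, chr1:165623528-165623587 and chr1:165616857-165616916. The scanner files name a transcript for each probe but not its exon or untranslated region, and no annotation of hg19 was used here. RefSeq on GRCh38.p14 lists 9 of the 10 as protein coding and GSTT2 as a transcribed pseudogene.

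MGST1 and GSTT2 were above background in A549 and PC14CDDP and not in PC14, GSTA4, MGST2 and GSTO2 were lower in PC14CDDP than in PC14, and no member passed the test after either transfection. Tested were the probes detected well above background on 3 or more arrays, 12 of the 14, from 9 of the 10 genes. The GSTT1 probe, well above background on 1 array of PC14, and the third MGST3 probe, on 2 arrays of A549, did not enter. MGST1 and GSTT2 entered through A549 and PC14CDDP alone and were well above background on 0 of the 4 arrays of PC14. The other 10 probes were well above background on all 12 arrays.

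MGST1, a membrane-bound transferase and peroxidase of the endoplasmic reticulum, was bright in A549 and PC14CDDP and below the detection limit throughout PC14. Its levels in PC14 were -8.15 with pre-miR-197, -8.12 with NC, -8.55 with LNA-miR-197 and -8.26 with LNA-NC, from processed signals of 1.91 to 2.47 units. In PC14CDDP they were 4.86, 5.07, 4.52 and 4.90 in the same order. In A549 they were 6.26, 6.23, 5.94 and 5.92. The 3 lines did not overlap, and within each the 4 transfections spread by an SD of 0.18 (A549), 0.20 (PC14) and 0.23 (PC14CDDP; n = 4 each). Because PC14 gives only a limit, the difference is a bound: MGST1 was at least 2199-fold higher in PC14CDDP than in PC14 and at least 5230-fold higher in A549 than in PC14. The probe entered the test through the lines in which it was bright, so these bounds are descriptions. The bound sets the mean of the brighter line against the mean of, per array of PC14, the probe's own signal or, where higher, the dimmest signal that counted as well above background. That dimmest signal is not a sharp limit. On the LNA-miR-197 array of PC14 it was 7.61 units, yet GSTT2 at 9.37 units was not well above background. Folds given as at least are therefore approximate. A549 was 2.38-fold above PC14CDDP (log2 difference 1.25 ± 0.09 SE, limma adjusted p = 4.70e-06). In bulk RNA, fewer cells that express a gene and less RNA per cell cannot be told apart.

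GSTT2 had another order, with PC14CDDP highest and PC14 not well above background. Its levels in PC14CDDP were 1.85 with pre-miR-197, 1.73 with NC, 1.12 with LNA-miR-197 and 1.81 with LNA-NC. In A549 they were -4.28, -4.75, -4.26 and -4.41, and in PC14 they lay between -8.13 and -6.26. PC14CDDP was at least 226-fold above PC14, and A549 was at least 3.40-fold above PC14, which are descriptions for the same reason. A549 was also below PC14CDDP, with a log2 difference of -6.05 ± 0.42 SE (limma adjusted p = 4.15e-06). GSTT2 has a near-identical neighbouring copy, GSTT2B, whose probe at chr22:24299975-24300034 lies 25887 bases away. The GSTT2B probe was well above background on the same number of arrays, 8, with mean levels of -5.06 (A549), -6.27 (PC14) and 0.53 (PC14CDDP). RNA of the copies cannot be told apart with certainty by such probes, so the levels are those of the probes as labelled. GSTT1, the other theta gene, was listed between -8.47 and -6.06 on the 12 arrays, and 1 of these, in PC14, was well above background.

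Of the 12 probes tested, 2 were higher and 4 lower in PC14CDDP than in PC14. Over all 33714 probes 25.5% were higher and 23.3% lower in this comparison, so that a call was common. The 2 higher were MGST1 and GSTT2, and their count is a description. Of the 10 probes well above background on all 12 arrays, 0 were higher and 4 lower, beside 30% and 23.5% of the 24609 such probes. GSTO2, an omega class enzyme that reduces dehydroascorbate, had levels of -4.77, -4.46, -4.40 and -3.88 in PC14CDDP (pre-miR-197, NC, LNA-miR-197 and LNA-NC). In PC14 they were -3.00, -2.77, -3.23 and -2.56, all above every array of PC14CDDP. GSTO2 was 2.80-fold lower in PC14CDDP, at a log2 difference of -1.48 ± 0.17 SE (limma adjusted p = 0.000185). The GSTO2 probe was dim, with signals of 26.0 to 45.5 units in PC14CDDP and 76.4 to 119.5 in PC14. Over the alternatives run its difference lay between -1.59 and -0.65, with the call kept in each, so that the size is less certain than the direction. GSTO1, its paralog, had levels of 4.72, 4.88, 4.63 and 4.75 in PC14 and 4.70, 4.75, 4.46 and 4.74 in PC14CDDP, which overlapped. Its difference of -0.08 did not pass the test (limma adjusted p = 0.486), with a 95% interval from -0.28 to 0.12.

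MGST2, a membrane-bound enzyme that can make leukotriene C4, had levels of 0.52, 1.14, 0.68 and 0.92 in PC14. In PC14CDDP they were -0.48, 0.48, 0.07 and 0.22, all below the lowest of PC14. It was 1.67-fold lower in PC14CDDP, at a log2 difference of -0.74 ± 0.14 SE (limma adjusted p = 0.00274), and lower under each of the 4 transfections. GSTA4, the alpha class enzyme known for conjugating the lipid peroxidation product 4-hydroxynonenal, had levels at probe 1 of -0.70, -0.30, -0.97 and -0.75 in PC14 and -1.81, -0.80, -1.10 and -1.05 in PC14CDDP. The lines overlapped, but PC14CDDP was lower under each transfection, by -0.51 ± 0.16 SE at probe 1 (limma adjusted p = 0.025) and -0.71 ± 0.17 SE at probe 2 (limma adjusted p = 0.00966). The call at probe 1 was lost without the pre-miR-197 arrays (difference -0.31, limma adjusted p = 0.0619), without the NC arrays (-0.52, limma adjusted p = 0.0919) and without the LNA-NC arrays (-0.58, limma adjusted p = 0.06). Over all the alternatives run, the GSTA4 call was kept in 9 and lost in 6.

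The other probes did not pass the test between PC14CDDP and PC14. GSTK1, a mitochondrial and peroxisomal enzyme, was at 3.33, 3.71, 2.99 and 3.50 in PC14 and 3.36, 4.10, 3.49 and 3.83 in PC14CDDP at probe 1, with a difference of 0.31 (95% interval 0.03 to 0.59, limma adjusted p = 0.0694) and of 0.27 at probe 2 (limma adjusted p = 0.0736). GSTP1, the pi class enzyme most often linked with drug resistance in tumours, was at 7.94, 7.98, 7.96 and 7.87 in PC14. In PC14CDDP it was at 7.63, 7.84, 8.16 and 7.58, a spread of 0.26 (SD, n = 4) that was wider than the 0.05 of PC14. Its difference of -0.14 had a 95% interval from -0.37 to 0.10 (limma adjusted p = 0.309). MGST3 differed by 0.01 at probe 1 and at probe 2, with 95% intervals from -0.18 to 0.20 and from -0.17 to 0.19.

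**Figure D1:**
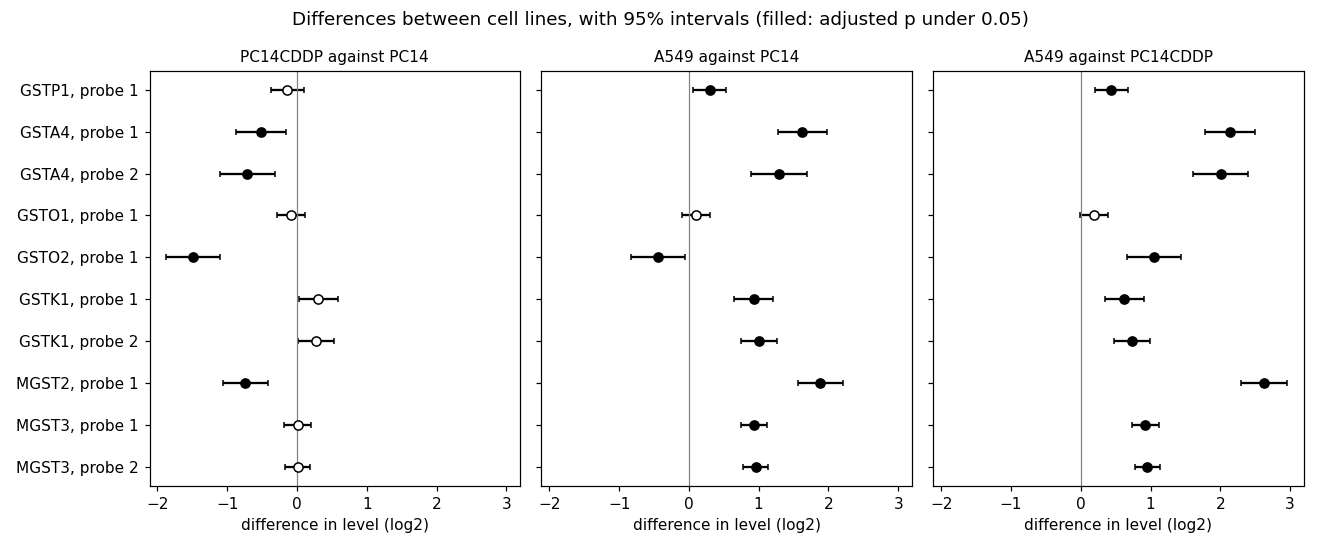
Difference in level between cell lines (x axis, log2) for the 10 probes detected well above background on all 12 arrays (y axis), with 95% intervals from the limma fit, filled where the adjusted p was under 0.05. GSTO2 lay at -1.48 in PC14CDDP against PC14 and at 1.04 in A549 against PC14CDDP, and MGST2 lay furthest from 0 in A549 against PC14CDDP, at 2.63.

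A549 had the highest mean level of 10 of the 12 probes tested. Against PC14, 10 probes were higher and 1 lower, where over all probes 34.3% were higher and 33.1% lower. MGST1 and GSTT2 were among these 10, and of the 10 probes above background on all arrays 8 were higher and 1 lower, beside 33.6% and 36.7% of such probes. Against PC14CDDP, 10 were higher and 1 lower, where over all probes 35.2% were higher and 35% lower. MGST2 was at 2.48, 2.74, 2.97 and 2.61 in A549, 3.69-fold above PC14 (log2 difference 1.88 ± 0.14 SE, limma adjusted p = 7.24e-06) and 6.18-fold above PC14CDDP (2.63 ± 0.14 SE, limma adjusted p = 9.31e-07). GSTA4 was at 0.86, 1.18, 0.82 and 0.95 at probe 1 in A549, 3.09-fold above PC14 (limma adjusted p = 3.07e-05) and 4.41-fold above PC14CDDP (limma adjusted p = 5.14e-06).

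MGST3 at probe 1 and GSTK1 at probe 1 were 1.91-fold above PC14 in A549, and GSTK1 at probe 2 2.01-fold, with no overlap between the lines. GSTP1 was at 8.22, 8.26, 8.30 and 8.17 in A549, all above the arrays of PC14 and PC14CDDP, by 0.30 ± 0.10 SE (limma adjusted p = 0.0292) and 0.44 ± 0.10 SE (limma adjusted p = 0.00485). GSTO2 was the probe lower in A549 than in PC14, by -0.44 ± 0.17 SE (limma adjusted p = 0.0455), with overlapping lines. GSTT2 was the probe lower in A549 than in PC14CDDP. The call of GSTP1 against PC14 was lost when the pre-miR-197 (limma adjusted p = 0.0731), NC (0.105) or LNA-NC arrays (0.0858) were left out, and that of GSTO2 without the NC (0.206) or the LNA-NC arrays (0.156). Over all the alternatives run, the GSTP1 call was kept in 10 and lost in 5. The GSTO2 call was kept in 8 and lost in 7. GSTO1 passed against neither line, at 0.11 (limma adjusted p = 0.314) and 0.19 (limma adjusted p = 0.0889).

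The order of the lines therefore differed by gene. A549 stood above PC14CDDP and PC14 for MGST1 without any overlap, above PC14 and PC14CDDP for MGST2 likewise, and above overlapping PC14 and PC14CDDP levels for GSTP1, GSTA4, GSTK1 and MGST3. For GSTO2, PC14 and A549 overlapped above PC14CDDP, and for GSTO1 all neighbouring lines overlapped.

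After pre-miR-197 the transferases with the lowest ratios to NC were GSTA4, MGST2 and GSTK1, which lay below NC in all 3 lines, but no member passed the test. Over all probes 0.0297% were called higher and 0.0564% lower, and of the 12 member probes 0 were, with 5 at an unadjusted p under 0.05, as were 15.8% of all probes. The log2 ratios of MGST2 to NC were -0.26 (A549), -0.63 (PC14) and -0.97 (PC14CDDP), with a mean of -0.62 and an SD of 0.36 (n = 3, limma adjusted p = 0.147). GSTA4 had ratios of -0.32, -0.40 and -1.01 at probe 1 (mean -0.58, limma adjusted p = 0.19) and -0.24, -0.49 and -1.25 at probe 2 (mean -0.66, limma adjusted p = 0.183). GSTK1 had ratios of -0.37, -0.38 and -0.74 at probe 1 (mean -0.50, limma adjusted p = 0.165) and -0.29, -0.24 and -0.64 at probe 2 (mean -0.39, limma adjusted p = 0.208). PC14CDDP had the lowest ratio at each of these 5 probes.

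Of the 10 probes well above background on all arrays, 8 lay below NC in all 3 lines, beside 20.7% of the 24609 such probes, and 0 lay above it in all 3, beside 28.2%. These 8 were the probes of GSTP1, GSTA4, GSTK1, MGST2 and MGST3 that entered the test. At least 1.2-fold below NC in all 3 lines were 2 of the 12, GSTA4 probe 1 and GSTK1 probe 1, beside 5.01% of all probes. Without A549 there were 4, beside 10.7% of all probes. Just outside this limit were MGST2 (-0.26 in A549) and GSTA4 probe 2 (-0.24 in A549). GSTO1 had ratios of 0.03, -0.15 and -0.06, and MGST1 of 0.03 in A549 and -0.21 in PC14CDDP, the lines in which it was measured.

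The NC arrays were high for several members. GSTA4, GSTK1 and MGST3 were higher on the NC array than on the other 3 arrays in all 3 lines, and MGST2 in 2 of the 3. Against the other control, LNA-NC, an alternative chosen after the data were seen, pre-miR-197 gave a mean log2 difference of -0.27 for GSTA4 probe 1 (limma adjusted p = 0.422), -0.24 for GSTK1 probe 1 (limma adjusted p = 0.366) and -0.41 for MGST2 (limma adjusted p = 0.194). MGST2 was lowest with pre-miR-197 of the 4 arrays in all 3 lines, with ratios to LNA-NC of -0.13 (A549), -0.40 (PC14) and -0.71 (PC14CDDP). GSTA4 had ratios to LNA-NC of -0.09, 0.05 and -0.76 at probe 1, so that only PC14CDDP was well below both controls.

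**Figure D2:**
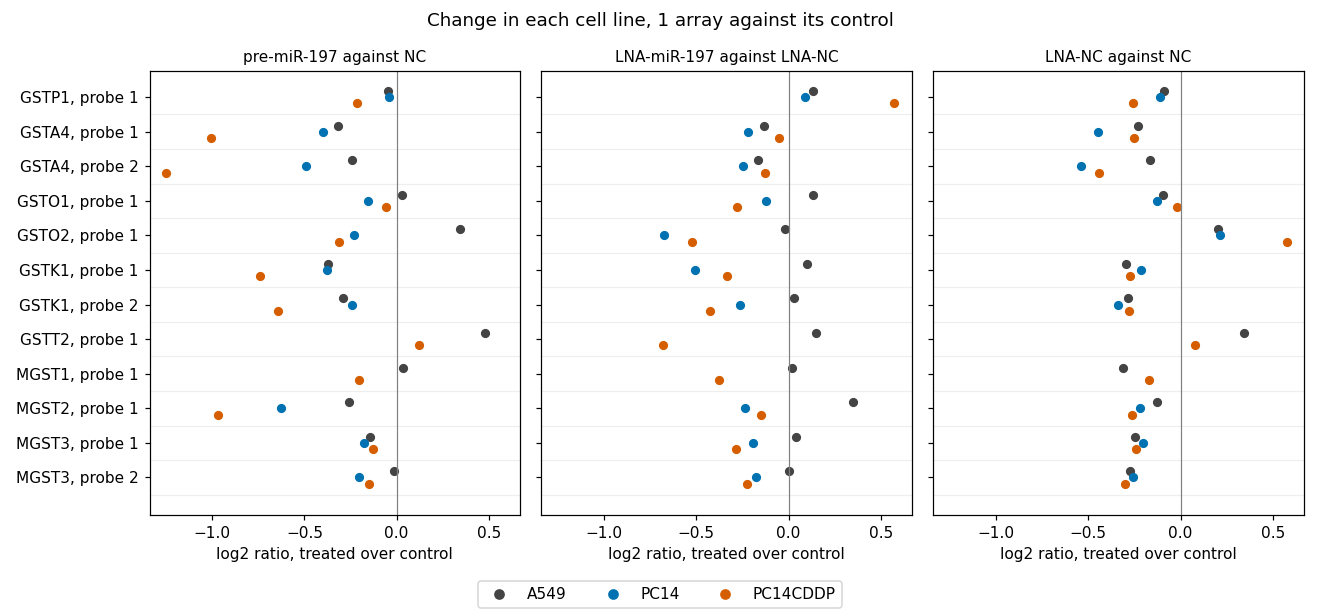
Log2 ratio of each treated array to its control in A549, PC14 and PC14CDDP (x axis) for the 12 probes tested (y axis), for the 3 transfection comparisons. Points are single arrays against their control, and PC14 is left out where neither array was well above background. With pre-miR-197 GSTA4 probe 2 in PC14CDDP lay lowest, at -1.25.

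LNA-miR-197 changed no member past the test, although calls were common in this comparison, with 4.03% of all probes higher and 3.96% lower. Of the 12 member probes 0 were called by limma and 0 had an unadjusted p under 0.05, beside 27.5% of all probes. Among the 10 probes above background on all arrays, GSTP1 was the 1 above LNA-NC in all 3 lines, with log2 ratios of 0.13 (A549), 0.09 (PC14) and 0.57 (PC14CDDP) (mean 0.26, SD 0.27, n = 3, limma adjusted p = 0.19), beside 27% of such probes. Below LNA-NC in all 3 lines were 3 of the 10, GSTO2 and both probes of GSTA4, beside 25.8% of such probes. GSTO2 had ratios of -0.02, -0.67 and -0.52 (mean -0.41, limma adjusted p = 0.221). At least 1.2-fold lower in all 3 lines were 0 of the 12, beside 8.09% of all probes.

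MGST2 had ratios to LNA-NC of 0.35 (A549), -0.24 (PC14) and -0.15 (PC14CDDP), and GSTK1 probe 1 of 0.10, -0.51 and -0.34. GSTT2 had ratios of 0.15 in A549 and -0.68 in PC14CDDP. The change after pre-miR-197 minus that after LNA-miR-197 was called at 0 of the 12 probes, beside 0.0178% of all probes higher and 0.0326% lower. It was largest in size, among the probes above background on all arrays, for MGST2, at -0.61 ± 0.23 SE (limma adjusted p = 0.22), the only 1 of the 12 with an unadjusted p under 0.05, beside 18.4% of all probes.

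The controls were also compared with each other. LNA-NC against NC called 0 of the 12 probes, beside 0.326% of all probes higher and 0.133% lower, with 3 at an unadjusted p under 0.05, beside 13.3% of all probes. Below NC in all 3 lines were 9 of the 10 probes above background on all arrays, beside 28% of such probes, and above it 1, GSTO2, beside 17.6%. MGST3 had ratios of LNA-NC to NC of -0.25, -0.20 and -0.24 at probe 1 and -0.28, -0.26 and -0.30 at probe 2 (mean -0.28, limma adjusted p = 0.235), wider than the -0.14, -0.18 and -0.13 of pre-miR-197 to NC at probe 1. GSTK1 probe 1 had ratios of -0.30, -0.22 and -0.27.

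Probes of the same gene gave near-parallel levels. Over the 12 arrays the levels of the first and second probes had a Pearson r of 0.989 for GSTA4, 0.982 for GSTK1 and 0.995 for MGST3, and after the mean of each line was taken away r was 0.985, 0.946 and 0.959. These are descriptions over arrays that share lines and transfections. The third MGST3 probe, which reads another transcript in the files, was at -7.84 to -5.44 and bore on no comparison. Repeated spots of a probe on 1 array had a median SD of 0.05 on the log2 scale for GSTP1 and MGST2 and 0.07 for GSTA4.

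**Figure D3:**
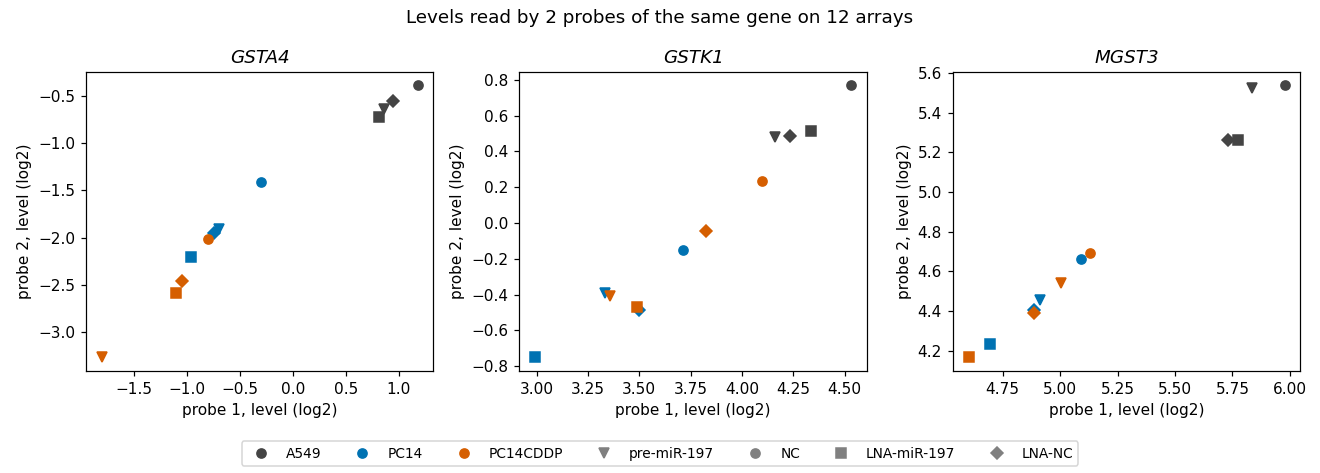
Levels of probe 1 (x axis, log2) and probe 2 (y axis, log2) of GSTA4, GSTK1 and MGST3 on the 12 arrays, with colours for cell lines and shapes for transfections. The probes of a gene moved together across lines and, within a line, across transfections.

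Within lines, r between probes of different genes ran from -0.53 to 0.87 over 42 pairs, with a median of 0.43. GSTA4 probe 1 had an r within lines of 0.85 to GSTK1 probe 1 and 0.79 to MGST2. GSTK1 probe 1 had 0.80 to MGST2. Other pairs were as high, such as GSTO1 with MGST3 probe 1 (0.87) and GSTK1 probe 2 with MGST3 probe 1 (0.82). GSTP1 had an r within lines of 0.31 to GSTA4, -0.03 to GSTK1 and 0.26 to MGST2. Among 18484 other genes read on all arrays, the gene closest in level over the 12 arrays was SKP1 for GSTP1 (r = 0.97), PPP1R16B for GSTA4 (0.99), ZNF619 for GSTO1 (0.96), RAB43 for GSTO2 (0.97), FAM13A for GSTK1 (0.96) and the keratin gene KRT19 for MGST2 (0.99). For MGST3 it was a probe without a gene symbol (0.99). The arrays share lines, so that a difference between lines is enough to give such values.

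The rest of the glutathione system was read from lists of related genes, each by its brightest probe. After pre-miR-197 0 genes of any of the 5 lists were called. After LNA-miR-197 1 gene was called, beside 4.03% of all probes higher and 3.96% lower. This was LTC4S, the leukotriene C4 synthase of the MAPEG family, lower by -0.80 ± 0.19 SE (limma adjusted p = 0.041). LTC4S was dim, with mean levels of -5.37 (A549), -5.22 (PC14) and -5.08 (PC14CDDP). It was well above background on 3 arrays of A549, 4 of PC14 and 3 of PC14CDDP. Its difference may therefore rest partly on signals at background. Between PC14CDDP and PC14, 6 of 15 other superfamily and MAPEG genes tested were higher and 3 lower, beside 25.5% and 23.3% of all probes. Their median log2 difference was 0.19, beside 0.04 over all probes. The widest were GSTT2B, at least 104-fold higher, and PTGES, a prostaglandin E synthase, at least 2.94-fold higher where 3 of the 4 arrays of PC14CDDP measured it. Bounds in these lists are descriptions, since such genes entered through the lines in which they were bright, and the counts include them. Of the 5 genes of the GSTM cluster 0 were higher and 4 lower (median -2.29), led by GSTM2 at -2.62 ± 0.17 SE and GSTM4 at -2.54 ± 0.14 SE.

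Of 19 genes of glutathione synthesis and breakdown 3 were higher and 4 lower in PC14CDDP than in PC14 (median -0.02). Of all probes, 25.5% were higher and 23.3% lower in this comparison. The widest were the gamma-glutamyltransferase GGT5 at -4.36 ± 0.67 SE and CBS, which makes cystathionine, at -2.20 ± 0.24 SE. DPEP1 was among the 3 higher but was well above background on 0 arrays of PC14 and 0 of PC14CDDP. It entered the test through A549, so that its call here compares signals at background. Of 16 genes of peroxide and disulfide reduction 6 were higher and 2 lower (median 0.05), led by thioredoxin TXN at 0.96 ± 0.10 SE and the glutaredoxin GLRX2 at 0.93 ± 0.10 SE. Of 9 genes that export conjugates 1 was higher and 5 lower (median -0.36), led by the transporters ABCC3 at -3.04 ± 0.60 SE and ABCC6 at -2.81 ± 0.15 SE. Among the genes of these lists, the calls of PC14CDDP against PC14 given with an SE had limma adjusted p-values of at most 0.0035.

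Between A549 and PC14 the calls were 6 higher and 5 lower of 15 other superfamily and MAPEG genes, 1 and 4 of the 5 GSTM genes, 9 and 4 of 19 synthesis genes, 11 and 1 of 16 reduction genes, and 5 and 3 of 9 export genes. Over all probes 34.3% were higher and 33.1% lower. The medians of the lists were -0.09, -4.10, 0.07, 1.00 and 0.95, beside 0.05 over all probes. PTGES was at least 43.0-fold higher in A549 and CLIC6, a chloride channel protein of the same fold, at least 13.4-fold higher in PC14. GSTM2 differed by -4.48 and GSTM3 by -4.22, the aminopeptidase ANPEP by -5.02, and the dipeptidase DPEP1, was well above background on 4 arrays of A549 and on 0 of PC14. The glutathione peroxidases GPX2 and GPX3 differed by 8.16 and 4.04, and ABCC3 and ABCC2 by 6.13 and 5.64. GPX3 was well above background on 3 of the 4 arrays of PC14 and on 2 of PC14CDDP. Its differences between A549 and either line therefore rest partly on signals at background.

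Between A549 and PC14CDDP the counts were 5 higher and 7 lower of 15, 1 and 4 of 5, and 11 and 4 of 19. For the reduction and export genes they were 9 and 4 of 16, and 6 and 3 of 9. Over all probes 35.2% were higher and 35% lower. The medians, in the same order, were -0.29, -1.81, 0.72, 0.44 and 2.14, beside 0.02 over all probes. GSTT2B differed by -5.59, and CLIC6 was at least 9.77-fold higher in PC14CDDP. GSTM3 differed by -2.17 and GSTM2 by -1.86, ANPEP by -5.64 and GGT5 by 2.95, GPX2 by 8.16 and GPX3 by 4.15, and ABCC3 by 9.17 and ABCC2 by 5.61. All of these but the bound of CLIC6, a description, are values that passed the test.

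RefSeq start-site windows of 300 bases (250 before the start and 50 after it, GRCh38.p14) were found for 7 of the 10 genes. The antioxidant response element, bound by NRF2, is a known control element of this family, and its core TGACNNNGC was searched on both strands. It was in the 1 window each of GSTP1, GSTA4 and GSTO1, and in 1 of the 3 windows of MGST1, 30 bases after the start. The window of GSTO1 held a second match, 161 bases upstream. The core was in 0 of the 2 windows of GSTO2 and not in the window of GSTK1 or of MGST3. Counted by window, 13.3% of all 35116 held it. TGACTCA or its complement TGAGTCA, the AP-1 motif, was in the window of GSTP1 alone among the members, where it overlaps the core, and in 4.95% of all windows. The stretches before the start sites of GSTP1 (chr11:67583730-67583770, plus strand, match 66 bases upstream) and of GSTO1 (chr10:104254650-104254690, plus strand, match 226 bases upstream) are printed as the members with the core and with levels above background on all arrays that changed least between PC14 and PC14CDDP, with the core in capitals. A match is a description of letters and not of binding.
GSTP1 promoter: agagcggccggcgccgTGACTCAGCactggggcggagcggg
GSTO1 promoter: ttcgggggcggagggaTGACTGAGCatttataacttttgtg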

How the data were processed

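Per the labels, total RNA was labelled by 1-colour low-input amplification, and the authors read the scans with Agilent Feature Extraction (version 10.7.3.1). They deposited spot intensity values (mean, local background and a processed signal, background-subtracted and detrended, not scaled between arrays) and a table equal to the processed signal on 62976 of 62976 spots per array. No normalization is given in the sources used here. The members and gene lists were chosen with earlier results of these data known.

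Control and outlier spots were left out, spots of a probe were averaged, and log2 of the signal was taken minus that of the 75th percentile of all non-control spots of the array (613 to 719 units). The 106 probes missing on an array were left out, and 33714 probes well above background on at least 3 of 12 arrays were tested. A model with transfection and cell line as terms was fitted over the 12 arrays (limma 3.58.1, R 4.3.3), with eBayes and Benjamini-Hochberg adjustment at 0.05 over all probes, and was tested on simulated data. Treated and control arrays are paired by cell line. What remained after the transfection means were taken away correlated at 0.845 or more between arrays of a line. After line means were taken away, arrays of a transfection correlated at 0.266 to 0.507. The first value still holds the difference between lines, and the second that between transfections. Both are therefore descriptions and no test of the pairing.

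All probes of the 10 genes were named, the brightest being the main probe, with the gene closest to each and the 2 called genes of each list with the largest difference. Names came from RefSeq (GRCh38.p14) by accession for 28174 of 50599 probes (55.7%) and otherwise from the files. Alternatives were normexp background correction (offset 50), quantile normalization, the deposited table, other filters, 1 probe or the mean per gene, other fits, the methods' t-test, and each line or transfection left out. Other steps used Python 3.11.15, pandas 2.3.3, numpy 2.4.6 and matplotlib 3.10.9.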

Additional observations from a re-analysis of the deposited data

Results flagged for a closer look

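In 34 sets of 4 arrays of a line, 2 had an array far from the others. Chance gives about 1 in 20, or 1.7 sets, so that this number is near that of chance. GSTT2 in PC14CDDP was lowest with LNA-miR-197, at 1.12 against 1.73 for the nearest array, a gap of 0.831 of the range of the 4 arrays. GSTK1 probe 2 in A549 was highest with NC, at 0.77 against 0.52 for the nearest array, a gap of 0.873 of the range. At GSTK1 probe 1 in A549 the NC array was also highest, at 4.53 against 4.34, but that set was not flagged. GSTO2 moved in opposite directions after pre-miR-197, at 0.34 in A549 against -0.23 in PC14 and -0.31 in PC14CDDP, a distance of 0.658 on the log2 scale that rests on 1 array against its control in each line, and the difference between lines was not tested.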

How the results depend on the processing

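Under the alternatives run, 0 member probes were called in the 3 transfection comparisons and their difference, and between 4 and 8 in PC14CDDP against PC14, 8 and 11 in A549 against PC14 and 8 and 12 in A549 against PC14CDDP. Without the replicate block 5 were called in PC14CDDP against PC14, 9 in A549 against PC14 and 11 in A549 against PC14CDDP. Probes 1.2-fold the same way in all lines used numbered 2 to 4 after pre-miR-197 and 0 to 4 after LNA-miR-197 as a line was left out, with the 4 in both found without A549, where 10.7% and 15.8% of all probes met the rule and, after LNA-miR-197, the 4 included MGST1, not well above background in PC14. Single main probes kept direction and side of the threshold in 762 alternatives, lost a call in 18, gained 1 in 6 and changed sign in 21, each of these last where no call was made. The calls lost were those of GSTA4 in PC14CDDP against PC14 and of GSTO2 and GSTP1 in A549 against PC14, without the replicate block among others (limma adjusted p = 0.0776, 0.0717 and 0.0625). The calls gained were GSTK1 in PC14CDDP against PC14 with normexp, with a filter on all 12 arrays and with a trend and robust prior (limma adjusted p = 0.0444, 0.0457 and 0.03), and GSTO1 in A549 against PC14CDDP with normexp, quantile normalization and that prior (0.00704, 0.0115 and 0.0338). With normexp the changes of sign were GSTT2 at 0.0078 for pre-miR-197 against NC, -0.24 for LNA-miR-197 against LNA-NC and 0.032 for LNA-NC against NC, and MGST3 at -0.0017 for PC14CDDP against PC14, which was -0.085 with quantile normalization. With LNA-NC in place of NC as the control of pre-miR-197, GSTP1 came to 0.055, GSTO1 to 0.019, GSTT2 to 0.028, MGST1 to 0.14 and MGST3 to 0.081. With a line left out, pre-miR-197 against NC ran from -0.27 to 0.057 for GSTO2, from -0.68 to 0.30 for GSTT2 and from -0.12 to 0.00013 for MGST1. LNA-miR-197 against LNA-NC ran from -0.20 to 0.0057 for GSTO1, from -0.27 to 0.96 for GSTT2 and from -0.19 to 0.10 for MGST2, and LNA-NC against NC from -0.65 to 0.21 for GSTT2. With a transfection left out, PC14CDDP against PC14 ran from -0.017 to 0.043 for MGST3. The cause was not tested. The single array per transfection and line, and signals at background for GSTT1, the third MGST3 probe and, in PC14, MGST1 and GSTT2, limit what these data can show.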
